A study of Mus musculus with 15 samples.

Results

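The 10 genes described here encode laminin chains and the linker and heparan sulfate proteins of basement membranes: Lama1, Lama2 and Lama5 (laminin alpha chains), Lamb1 and Lamb2 (beta chains), Lamc1 (a gamma chain), Nid1 and Nid2 (nidogens), Hspg2 (perlecan) and Agrn (agrin). They were taken by gene name from the 57132 genes of each of 3 deposited tables, and all 10 passed the minimum signal for testing in every comparison.

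A basement membrane is a sheet of extracellular matrix built on networks of laminin and of collagen IV. A laminin is a heterotrimer of an alpha, a beta and a gamma chain, nidogens bridge the laminin and collagen IV networks, and perlecan and agrin are large proteoglycans that bind laminin. In the glomerular basement membrane, the filter of the kidney, Lama1 and Lamb1 are used early in development and are replaced by Lama5 and Lamb2, which assemble with Lamc1, while agrin is the main heparan sulfate proteoglycan of the mature membrane. In kidneys of Alport mice, which lack some of the collagen IV chains, laminins with the Lama1 or Lama2 chain are known to appear in the glomerular basement membrane.

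RNA of mouse podocytes, the epithelial cells on the outer face of that filter, was sequenced as 15 libraries in 5 groups of 3. Col4a3-/- cells (knockout) with vehicle were set against Col4a3+/+ cells (wild type) with vehicle in the genotype table. Separate Col4a3-/- cells received ApoM (apolipoprotein M, which carries sphingosine 1-phosphate in plasma) or CYM50358 (an antagonist of the sphingosine 1-phosphate receptor S1pr4) for 24 h, or vehicle, so every treated library and its vehicle control carries the Col4a3 knockout. The labels give no doses and leave unsaid whether the lines are single clones and whether replicate libraries are separate cultures, so the spread behind each p-value may be technical.

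Libraries held 45417221 to 83166742 reads, and values are given as signal, which behaves as reads scaled to library size with a further factor, so that 1 read is worth 0.0118 to 0.0221. Wild-type replicate 1 stood apart from the other wild-type libraries, and calls that change without it are given both ways. Col4a3 itself had a signal of 60.9 to 81.8 in knockout cells, against 938 to 1268 in wild-type cells, and 13.5 to 24.4 in the 9 knockout libraries of the treatment tables. Of the podocyte markers, Nphs1 (nephrin) and Ptpro stayed under a mean of 0.5 in every group, while Synpo (synaptopodin) reached 286 to 846, so the podocyte label was not matched by all of its defining markers.

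Per kilobase of exon, the scale on which genes can be compared, perlecan was the most abundant of the 10 transcripts in every knockout group. Hspg2 averaged 144 ± 33.6 signal per kb in knockout cells and 92.1 ± 6.96 in wild-type cells (SD, n = 3 each), where Nid1 at 108 ± 6.04 was higher. In knockout cells of the genotype table the mean signal per kb was 91.5 for Lamb1, 83.1 for Nid1, 79.6 for Nid2, 47.2 for Lamb2, 41.7 for Agrn, 35.9 for Lama5 and 30.7 for Lamc1. Of neighbours in this order, only Nid1 and Nid2, and Lama5 and Lamc1, had overlapping library ranges. Lama2 and Lama1 came last, at 0.739 ± 0.0824 and 0.257 ± 0.0633 per kb in knockout cells and at 3.06 ± 0.406 and 0.950 ± 0.253 per kb in wild-type cells. In the treatment tables Hspg2 averaged 147 per kb with ApoM, 118 with CYM50358 and 142 with vehicle, again followed by Lamb1 at 99.3, 86.9 and 98.6 in that order of groups. Lama1 there equalled or exceeded Lama2 per kb, at 0.490, 0.382 and 0.799, against 0.471, 0.381 and 0.428 for Lama2, with ranges that did not overlap only with vehicle.

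Lama5 made up 96.9% to 97.1% of the signal per kb summed over all 5 alpha chains in knockout cells and 84.9% to 90.3% in wild-type cells. Lamb1, the beta chain of immature glomeruli, made up 65.4% to 66.3% of the beta-chain signal per kb in knockout cells and 66.8% to 67.5% in wild-type cells. The beta chain of the mature membrane, Lamb2, was thus the minor one in both genotypes. In the treatment tables the Lamb1 share was 69.7% to 73.6% with ApoM, 66.2% to 71.2% with CYM50358 and 71.4% to 73.7% with vehicle.

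**Figure D1:**
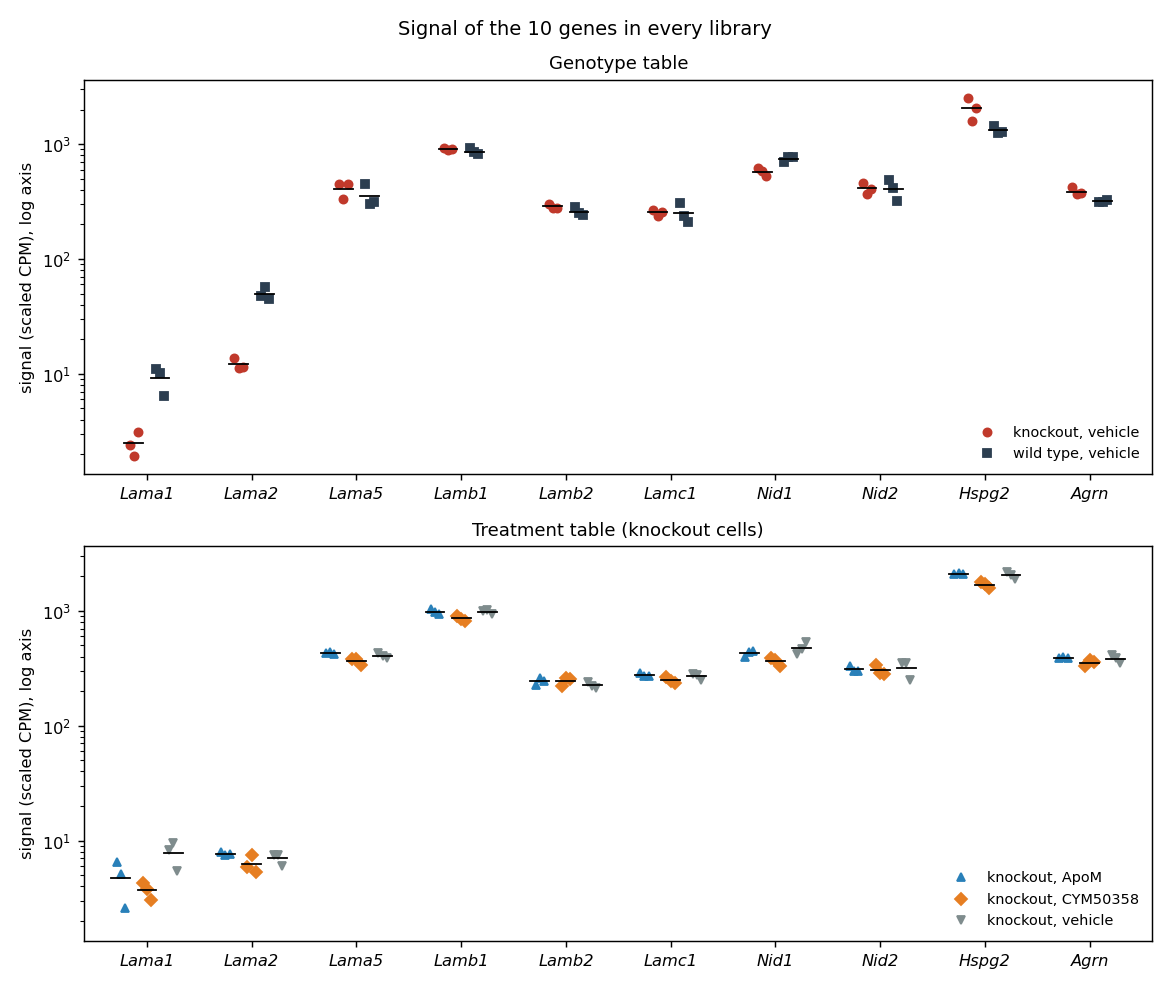
Signal (log axis) of the 10 genes in each library, as 1 point per library with a bar at the group mean; the upper panel has the genotype table and the lower panel the treatment tables. Lama1 and Lama2 lie far below the other 8 genes in every group, and Lama2 occupies separate ranges of 11.2 to 13.6 in knockout and 44.8 to 57.5 in wild-type libraries.

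Between the genotypes, both minor alpha chains and nidogen 1 were lower in knockout cells, and both heparan sulfate proteoglycans were higher. Of the 10 genes, 2 rose and 3 fell at an adjusted p under 0.05 (limma on log2(signal + 1), Benjamini-Hochberg over 14313 genes), against a background in which 22.6% of all genes tested rose and 22.0% fell, 44.7% in all. Groups did not overlap for 5 of the 10, against 55.8% of all genes, and 6 of the 10 had an unadjusted limma p under 0.05, against 52.1%. The shares among the 10 were thus near those of all genes. Their median log2 fold change was 0.06, against 0.0029 over all genes tested. Adding 1 to the signal before taking logs makes the fold changes of low genes such as Lama1 too small, here and below.

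Lama2, the alpha chain best known from muscle and peripheral nerve, had a signal of 13.6, 11.2 and 11.4 in knockout cells, against 47.8, 57.5 and 44.8 in wild-type cells. The groups lay far apart, and Lama2 fell by 1.96 on the log2 scale (SE 0.108, limma adjusted p = 1.49e-06), a change among the largest 1.54% of all genes tested. Lama1, an alpha chain of embryonic basement membranes, had 2.41, 1.92 and 3.13 in knockout cells, against 10.9, 10.2 and 6.39 in wild-type cells. No library of one genotype reached the range of the other, and Lama1 fell by 1.53 (SE 0.198, limma adjusted p = 0.000292). That value rests on 99 to 175 reads per knockout library and 296 to 555 per wild-type library.

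Lama5, the main alpha chain, had 446.2, 336 and 445.6 in knockout cells, against 445.5, 302 and 313 in wild-type cells. The groups overlapped through wild-type replicate 1, and the log2 fold change of 0.22 (SE 0.157, 95% interval -0.13 to 0.58) had a limma adjusted p of 0.278. Without wild-type replicate 1, Lama5 was higher in knockout cells by 0.40, with a limma adjusted p of 0.010.

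The beta and gamma chains lay closer together in the genotypes. Lamb1 averaged 907 ± 23.8 in knockout cells and 862 ± 56.1 in wild-type cells, and Lamc1 averaged 254 ± 14.7 in knockout cells and 249.7 ± 49.1 in wild-type cells (SD, n = 3 each). Neither passed the test, with log2 fold changes of 0.08 (95% interval -0.09 to 0.24) and 0.04 (95% interval -0.23 to 0.31). Lamb2 had 302, 279 and 279.8 in knockout cells, against 281, 251 and 241 in wild-type cells, a log2 fold change of 0.16 (SE 0.069) with a limma adjusted p of 0.0922. In the fit with the replicate number as a block, which pairs same-numbered libraries, the limma adjusted p of Lamb2 was 0.0278. Without wild-type replicate 1 it was 0.00881 and that of Lamc1, at a log2 fold change of 0.19, was 0.0378, so that 8 of the 10 genes were called. Over all genes, fits with 1 library left out gave 4833 to 6387 calls, against 6395 (44.7%) with all libraries.

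Nid1 had 617, 587 and 528 in knockout cells, against 700.1, 774 and 771 in wild-type cells. The ranges did not touch, and Nid1 fell by 0.38 (SE 0.0777, limma adjusted p = 0.00397), or by 22.9%. Nid2, the other nidogen, averaged 412 ± 44.6 in knockout cells and 406 ± 84.8 in wild-type cells, with a log2 fold change of 0.04 (95% interval -0.28 to 0.36, limma adjusted p = 0.858). Nid2 overlaps Rtraf, which had up to 10735 reads in a library, and Nid1 overlaps Gm48682, with up to 133. Whether reads were counted by strand is not given in the sources used here, so both nidogen values are uncertain to that extent.

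Hspg2 had 2539, 1576 and 2063 in knockout cells, against 1429, 1239 and 1284 in wild-type cells. All knockout libraries exceeded all wild-type ones, although the knockout libraries varied more among themselves, and Hspg2 rose by 0.62 (SE 0.157, limma adjusted p = 0.0108). Agrn had 422, 365 and 374 in knockout cells, against 314, 313 and 324 in wild-type cells. Here the wild-type libraries were nearly equal and all lower, and Agrn rose by 0.28 (SE 0.0654, limma adjusted p = 0.00677).

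Hspg2 and Agrn both lie on chromosome 4, at 137196080 to 137297941 and 156249747 to 156281945 (mm39), where the median gene tested had a log2 fold change of -0.16. Lama2 lies on chromosome 10, at 26856032 to 27495754 (mm39), where that median was 0.28. With the chromosome median subtracted, the log2 fold changes were 0.78 for Hspg2, 0.45 for Agrn and -2.24 for Lama2, all called. These medians are opposite in sign to the changes of the genes named. Subtracting them could only enlarge those changes, so that the calls remained is no test of them.

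The 250 bases before the transcript start of Lama2, Nid1, Hspg2 and Agrn are shown because these 4 genes changed between the genotypes and their promoters differ in makeup; they come from the RefSeq promoter table on GRCm38.p6, which holds 7 of the 10 genes, and were chosen after the values were seen. The others are Lama1, Lamc1 and Nid2. Capitals mark the GC box (GGGCGG), the CCAAT box (CCAAT), the TATA box (TATAAA) and the AP-1 motif (TGANTCA), each searched on both strands, where neighbouring GC boxes may overlap by a base.
Lama2 (chr10:27616943-27617192, minus strand): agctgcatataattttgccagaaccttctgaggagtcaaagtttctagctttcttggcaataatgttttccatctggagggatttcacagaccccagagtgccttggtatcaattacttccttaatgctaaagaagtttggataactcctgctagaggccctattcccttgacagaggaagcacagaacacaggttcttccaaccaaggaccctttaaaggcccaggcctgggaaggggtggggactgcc
Nid1 (chr13:13437352-13437601, plus strand): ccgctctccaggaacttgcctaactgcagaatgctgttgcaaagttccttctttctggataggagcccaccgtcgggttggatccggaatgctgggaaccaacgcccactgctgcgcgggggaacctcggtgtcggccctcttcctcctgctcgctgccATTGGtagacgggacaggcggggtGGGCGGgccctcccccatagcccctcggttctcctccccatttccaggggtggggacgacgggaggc
Hspg2 (chr4:137468553-137468802, plus strand): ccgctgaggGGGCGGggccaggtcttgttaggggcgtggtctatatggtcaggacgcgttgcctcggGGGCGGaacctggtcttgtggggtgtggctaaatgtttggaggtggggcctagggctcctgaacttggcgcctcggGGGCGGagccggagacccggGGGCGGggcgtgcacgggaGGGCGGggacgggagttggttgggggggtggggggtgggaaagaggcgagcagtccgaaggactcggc
Agrn (chr4:156197489-156197738, minus strand, the more upstream of 2 starts): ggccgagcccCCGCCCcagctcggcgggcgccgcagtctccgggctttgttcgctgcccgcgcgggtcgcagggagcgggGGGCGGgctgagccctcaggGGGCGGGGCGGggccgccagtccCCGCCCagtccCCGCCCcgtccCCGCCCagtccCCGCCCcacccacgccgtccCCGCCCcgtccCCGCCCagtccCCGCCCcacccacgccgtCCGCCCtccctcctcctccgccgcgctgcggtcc
The Lama2 stretch held 0 CG dinucleotides and 0 matches to the 4 motifs, at 47.2% GC. The Nid1 stretch held 16 CG dinucleotides, 1 GC box and 1 CCAAT box, at 64.4% GC. In Hspg2 there were 20 CG dinucleotides and 5 GC boxes at 70.0% GC, and in Agrn 35 CG dinucleotides and 12 GC boxes at 83.6% GC. Over 32851 promoters of the same length, the median was 6 CG dinucleotides and 52.4% GC, and 32.7% held a GC box, 33.8% a CCAAT box, 12.4% a TATA box and 6.75% an AP-1 motif. These matches describe the letters only, and nothing was measured at these sites.

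**Figure D2:**
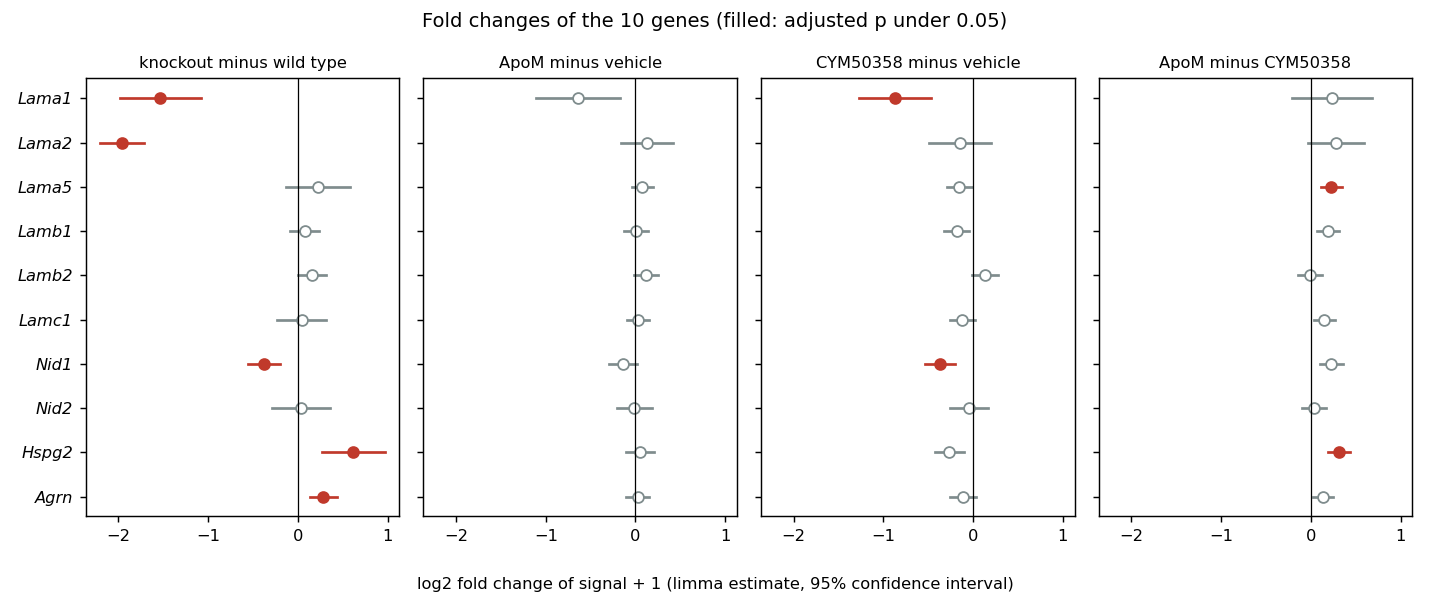
Log2 fold change of signal + 1 for each of the 10 genes (points, limma estimates with 95% confidence intervals) in the 4 comparisons, filled where the adjusted p is under 0.05. There are 5 filled points for knockout minus wild type, 0 for ApoM and 2 for CYM50358 against vehicle, and 2 for ApoM set against CYM50358.

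Ratios of related chains within a library do not depend on scaling between libraries. Reads of Lama5 over those of Lama1 gave ratios of 142 to 185 in knockout cells and 29.4 to 48.9 in wild-type cells. The log2 difference was 2.10, and the ranges did not overlap (exact two-sided permutation test, p = 0.1, the smallest that 3 against 3 libraries can give). Lama2 over Lama1 was 3.63 to 5.85 in knockout cells and 4.37 to 7.0 in wild-type cells, overlapping ranges, with a log2 difference of -0.17 (exact permutation p = 0.7). Lamb2 over Lamb1 was 0.311 to 0.324 in knockout cells and 0.295 to 0.304 in wild-type cells, a log2 difference of 0.08 without overlap (exact permutation p = 0.1). Nid2 over Nid1 was 0.628 to 0.777 in knockout cells and 0.412 to 0.696 in wild-type cells, a log2 difference of 0.41 with overlap (exact permutation p = 0.2). Adjusted over the 4 ratios, the lowest exact permutation p was 0.2.

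**Figure D3:**
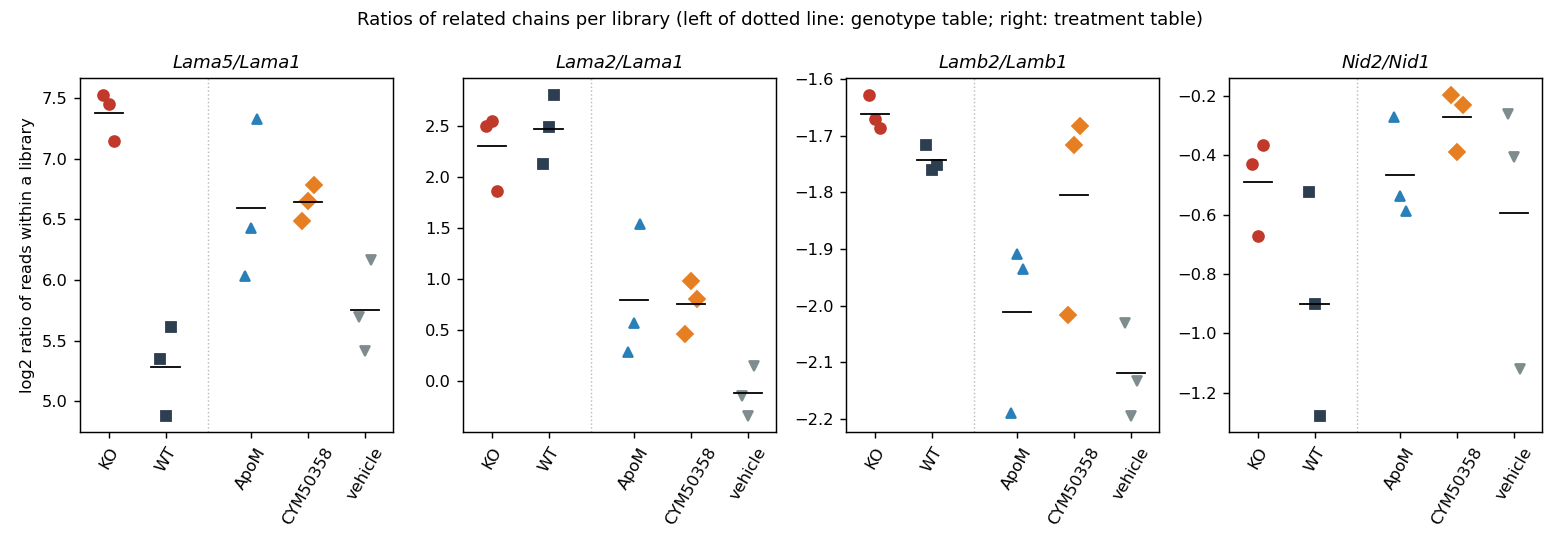
Log2 ratio of reads of 2 related chains within each library, with a bar at the group mean; knockout and wild type are left of the dotted line and the treatment groups right of it. The log2 ratio of Lama5 to Lama1 differed by 2.10 between knockout and wild type and by 0.89 between CYM50358 and vehicle, without overlap in either case.

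Other genes of the same pathway were read as lists. Among laminin chains outside the 10, Lamc3, a gamma chain, fell and averaged 1.42 ± 0.301 in knockout cells and 2.43 ± 0.558 in wild-type cells (log2 fold change -0.50, limma adjusted p = 0.0264). Lama3 did not pass (-0.01, limma adjusted p = 0.959), and Lama4 and Lamb3 were under the minimum, with means of 0.147 and 0.432 in knockout cells and 0.306 and 0.452 in wild-type cells. All of these were minor transcripts, as Lama1 and Lama2 were.

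Of 11 receptors of laminin, agrin and perlecan, 10 were tested, 6 fell and 0 rose, where 22.0% of all genes fell and 22.6% rose, with a median log2 fold change of -0.45 against 0.0029 over all genes tested. Bcam, a receptor that binds the Lama5 chain, averaged 44.6 ± 3.04 in knockout cells and 125.7 ± 8.98 in wild-type cells (-1.47, limma adjusted p = 5.90e-07). Itga3, the alpha subunit of the main laminin integrin of podocytes, averaged 455 ± 40.2 in knockout cells and 663 ± 3.35 in wild-type cells (-0.55, limma adjusted p = 0.000359). Itga1, a subunit of an integrin that binds collagen and laminin, changed by -0.68 (limma adjusted p = 0.00108), and Dag1, the dystroglycan that binds laminin, agrin and perlecan, by -0.61 (limma adjusted p = 0.00323). Itgb1, the beta subunit that pairs with Itga3, averaged 3811 ± 138 in knockout cells and 3559 ± 413 in wild-type cells and did not pass (0.11, limma adjusted p = 0.528).

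Of 14 enzymes of the glycosylation that lets dystroglycan bind laminin, 13 were tested, 4 rose and 3 fell, near the 44.7% of all genes called, with a median log2 fold change of -0.09. Pomgnt1 (-0.59), which adds a sugar to the O-mannose of dystroglycan, fell, and Pomk (0.54), a kinase of that O-mannose glycan, rose. Of 6 collagen IV chains, Col4a5 rose (0.30) and Col4a3 (-3.97), Col4a4 (-0.43) and Col4a6 (-0.32) fell, with a median of -0.19. Of 18 other basement membrane genes, 15 were tested, 5 rose and 5 fell, with a median of 0.0073, again beside 44.7% of all genes called. Hmcn1 (hemicentin 1) averaged 33.4 ± 11.9 in knockout cells and 2.12 ± 0.542 in wild-type cells (3.40, limma adjusted p = 9.51e-06), and Fras1 (1.63) and Fbln2 (fibulin 2, 1.11) also rose. Ntn4, a netrin that binds laminin gamma chains, averaged 241 ± 1.13 in knockout cells and 457 ± 28.5 in wild-type cells (-0.92, limma adjusted p = 3.96e-06).

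**Figure D4:**
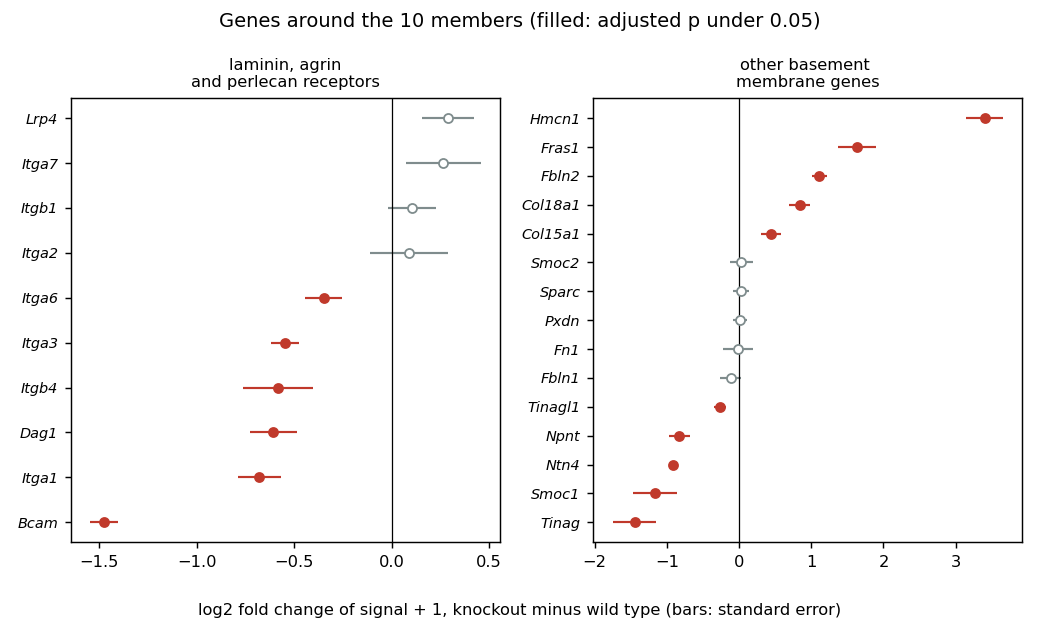
Log2 fold change of signal + 1, knockout minus wild type (points, with standard errors as bars), for the tested genes of 2 lists, filled where the adjusted p is under 0.05. Among the receptors the 6 filled points lie below 0, while the other basement membrane genes have 5 filled points above 0 and 5 below.

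Markers of cell types moved between the genotypes as well, where 22.6% of all genes tested rose and 22.0% fell. Of 10 podocyte markers 7 were tested, 1 rose and 6 fell, with a summed signal of 1275 to 1376 in knockout cells and 1720.1 to 1897 in wild-type cells. Of 7 endothelial markers both of the 2 tested fell, with sums of 38.8 to 44.3 in knockout cells and 51.8 to 61.6 in wild-type cells, and Pecam1, Cdh5, Tek and Emcn averaged under 0.5 in both. Of 8 mesangial and fibroblast markers 2 rose and 3 fell, with sums of 6829 to 7910.4 in knockout cells and 5818 to 7933 in wild-type cells that are nearly all Acta2 (smooth muscle actin; means of 6710.1 in knockout cells and 6686 in wild-type cells). The others moved in both directions, as Col1a1 averaged 473 in knockout cells and 24.3 in wild-type cells, Col1a2 0.991 in knockout cells and 30.5 in wild-type cells, Cspg4 0.442 in knockout cells and 10.2 in wild-type cells, and Pdgfrb 115 in knockout cells and 252 in wild-type cells. Of 7 parietal and tubular markers 6 were tested, 1 rose and 2 fell, with sums of 713 to 879 in knockout cells and 747 to 945 in wild-type cells. Of 5 leukocyte markers the 1 tested did not pass, with sums of 1.85 to 2.77 in knockout cells and 1.54 to 3.13 in wild-type cells. Their part in the results above was not tested, and in such bulk samples fewer cells of a type and less RNA per cell cannot be told apart.

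The vehicle knockout cells of the treatment tables are another set of the same genotype, normalized separately, so their levels are set side by side without a test. Lama2 was low in both knockout sets, with means of 6.99 in the treatment set and 12.1 in the genotype set, against 50.0 in wild-type cells. Lama1 was not, with means of 7.73 in the treatment set and 2.49 in the genotype set, against 9.20 in wild-type cells. Hspg2 (2037 in the treatment set and 2059 in the genotype set, against 1317 in wild-type cells) and Agrn (384 and 387, against 317) were alike in the knockout sets and higher than in wild-type cells. Nid1 averaged 474 in the treatment set and 577 in the genotype set, against 748 in wild-type cells. Nid2 and Lamb2 averaged 316 and 225 in the treatment set and 412 and 287 in the genotype set, against 406 and 258 in wild-type cells, so the knockout sets stood on different sides of the wild-type mean.

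With ApoM, none of the 10 genes passed the test by limma, edgeR or DESeq2. Across the table limma called 6 of 13839 genes, or 0.0434% (0.0145% higher, 0.0289% lower), and at an unadjusted p under 0.05 it passed 1 of the 10 (Lama1) and 5.46% of all genes. Lama1 had 6.56, 5.07 and 2.61 with ApoM, against 8.27, 9.50 and 5.43 with vehicle, so the highest ApoM library lay above the lowest vehicle library. The log2 fold change of Lama1 was -0.64 (SE 0.223, limma adjusted p = 0.719), among the largest 0.065% of genes in size. Without ApoM replicate 3 it was -0.34 (limma adjusted p = 0.966), and over all single libraries left out it ran from -0.87 to -0.34. The other 9 genes had log2 fold changes of -0.14 (Nid1) to 0.13 (Lama2), and the widest of their 95% intervals, that of Lama2, ran from -0.16 to 0.42. Hspg2 had 2101, 2121 and 2089.5 with ApoM, against 2188, 2033 and 1891 with vehicle, with the ApoM libraries inside the vehicle range. Of the 10 genes none had groups without overlap, against 10.7% of all genes tested, and no gene of the other laminin, receptor, glycosylation, collagen IV or other basement membrane lists was called.

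With CYM50358, Lama1 and Nid1 fell, 2 of the 10 genes, where 1.25% of the 13877 genes tested fell, 1.34% rose and 2.59% were called in either direction. The ApoM and CYM50358 comparisons share the same 3 vehicle libraries. Lama1 had 4.24, 3.78 and 3.06 with CYM50358, against 8.27, 9.50 and 5.43 with vehicle. All treated libraries were below all vehicle libraries, and Lama1 fell by 0.87 (SE 0.190, limma adjusted p = 0.0195), among the largest 0.108% of changes. Nid1 had 385, 377 and 334 with CYM50358, against 419, 465 and 538 with vehicle, again without overlap, and fell by 0.37 (SE 0.0802, limma adjusted p = 0.0189), or by 22.6%.

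Both calls were lost when certain single libraries were left out. The limma adjusted p of Lama1 was 0.0811 without vehicle replicate 1, 0.107 without vehicle replicate 2, 0.0789 without CYM50358 replicate 2 and 0.0699 without CYM50358 replicate 3. That of Nid1 was 0.0587 without vehicle replicate 2, 0.0677 without vehicle replicate 3, 0.0793 without CYM50358 replicate 2 and 0.0798 without CYM50358 replicate 3. Without a minimum signal the adjusted p was 0.268 for Lama1 and 0.284 for Nid1.

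Hspg2, Lamb1 and Lama5 also had treated libraries wholly below the vehicle ones, so that 5 of the 10 genes had no overlap, against 20.9% of all genes tested. The same number had an unadjusted limma p under 0.05, against 16.6% of all genes. Hspg2 had 1773, 1717 and 1585 with CYM50358, against 2188, 2033 and 1891 with vehicle, a log2 fold change of -0.27 (SE 0.0779) with a limma adjusted p of 0.0749. DESeq2 called Hspg2 (adjusted p = 0.00318), as did limma with all libraries of the treatment tables in 1 fit (adjusted p = 0.0327) and limma without vehicle replicate 3 (adjusted p = 0.0412). Lamb1 had 905, 858 and 823 with CYM50358, against 989.9, 1009 and 933 with vehicle (-0.18, limma adjusted p = 0.154, DESeq2 adjusted p = 0.0365). Lama5 averaged 366 ± 24.96 with CYM50358 and 407 ± 19.8 with vehicle (-0.15, limma adjusted p = 0.230). In the authors' deposited table, Lama1 (-1.07), Lamb1 (-0.18), Nid1 (-0.38) and Hspg2 (-0.27) had an adjusted p under 0.05 with CYM50358.

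The remaining genes overlapped between CYM50358 and vehicle and did not pass. Lamb2 alone of the 10 had a positive log2 fold change, 0.13 (95% interval -0.02 to 0.28). Lama2 (-0.15), Lamc1 (-0.12), Agrn (-0.11) and Nid2 (-0.05) had limma adjusted p-values of 0.375 to 0.865. The median log2 fold change of the 10 was -0.15, against -0.0017 over all genes tested. With libraries centred on their medians, the split of all called genes was 158 higher and 231 lower, against 186 and 173 in the deposited scaling, and 2 of the 10 genes were called in both.

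Within a library, the ratio of Lama5 to Lama1 reads was 89.96 to 110.3 with CYM50358 and 42.6 to 71.6 with vehicle (log2 difference 0.89, exact permutation p = 0.1, no overlap). Lama2 over Lama1 was 1.38 to 1.98 with CYM50358 and 0.790 to 1.11 with vehicle (0.87, exact permutation p = 0.1), so every treated library had more Lama2 than Lama1 reads. Lama2 has 16.3 kb of exon against 9.68 kb for Lama1, and per kb their means with CYM50358 were alike, at 0.381 and 0.382. Lamb2 over Lamb1 was 0.247 to 0.312 with CYM50358 and 0.218 to 0.245 with vehicle (0.31, exact permutation p = 0.1). With ApoM, only Lama2 over Lama1 of the 4 ratios did not overlap its vehicle range, at 1.22 to 2.91 (log2 difference 0.91, exact permutation p = 0.1, and 0.54 without ApoM replicate 3). Adjusted over the 4 ratios of each comparison, the lowest exact permutation p was 0.133 for CYM50358 and 0.4 for ApoM.

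Around the 10 genes, 1 of 10 receptors, 1 of 6 collagen IV chains and 1 of 15 other basement membrane genes tested fell with CYM50358, where 1.25% of all genes fell. Itgb1, the shared beta subunit of laminin-binding integrins, averaged 2901 ± 126 with CYM50358 and 3606 ± 147 with vehicle (-0.31, limma adjusted p = 0.0466). Col4a5 changed by -0.38 (limma adjusted p = 0.0223) and Pxdn (peroxidasin, which cross-links collagen IV) by -0.33 (limma adjusted p = 0.0470). No other laminin chain and no glycosylation enzyme was called. Of the parietal and tubular markers 1 rose and 1 fell of 6 tested, with summed signals of 689 to 731 with CYM50358 and 711 to 784 with vehicle, and no tested gene of the other marker lists was called. The part of these markers was not tested.

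Set directly against each other at the same 24 h, ApoM libraries had higher Lama5 and Hspg2 than CYM50358 libraries. These were 2 of the 10 genes, where 1.22% of 13878 genes were higher, 1.37% lower and 2.59% were called in either direction, and doses are not given in the labels. Hspg2 had 2101, 2121 and 2089.5 with ApoM, against 1773, 1717 and 1585 with CYM50358, narrow and separate ranges, and was higher by 0.32 (SE 0.0593, limma adjusted p = 0.00390). Lama5 had 431, 436 and 419 with ApoM, against 382, 379.6 and 338 with CYM50358, again without overlap, and was higher by 0.23 (SE 0.0571, limma adjusted p = 0.0330). The Lama5 call was lost without ApoM replicate 1 (limma adjusted p = 0.158) or 2 (0.171) and without CYM50358 replicate 2 (0.0787) or 3 (0.110), and neither gene was called without a minimum signal (0.287 for Lama5, 0.237 for Hspg2).

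Same-numbered ApoM and CYM50358 libraries varied together only weakly (correlations of 0.115 to 0.132), and the labels state no pairing. With the replicate number as a block, a choice made from these same data, 6 of the 10 genes were higher with ApoM. Lamb1 (0.19, limma adjusted p = 0.000852), Lamc1 (0.15, 0.0161), Nid1 (0.23, 0.00458) and Agrn (0.14, 0.0283) joined Lama5 and Hspg2. Over the 13878 genes tested the block gave 1174 calls, against 360 (2.59%) without it. Without the block the limma adjusted p-values of these 4 genes were 0.0840, 0.179, 0.0538 and 0.219, and without CYM50358 replicate 1 those of Lamb1 and Nid1 were 0.0401 and 0.0234. DESeq2 called both as well (adjusted p = 0.0226 for Lamb1 and 0.0211 for Nid1), and limma called Nid1 with a minimum signal of 5 (adjusted p = 0.0497) and with libraries centred on their medians (adjusted p = 0.0391). Without the block, 6 of the 10 genes, the same as those called with it, had an unadjusted limma p under 0.05, against 15.2% of all genes. ApoM and CYM50358 libraries did not overlap for these 4 genes, Lama5, Hspg2 and Lama2, 7 of the 10, against 19.5% of all genes tested. Lama1 (log2 difference 0.23, 95% interval -0.21 to 0.68), Lamb2 (-0.01, -0.15 to 0.12) and Nid2 (0.03, -0.10 to 0.17) overlapped and did not pass, and the 4 chain ratios had exact permutation p-values of 0.2 to 0.9.

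Among neighbours in the pathway, Itgb1 (0.25, limma adjusted p = 0.0316), Pxdn (0.29, 0.0259), Fras1 (0.46, 0.0263) and the collagen IV chains Col4a3 (0.51, 0.0121), Col4a4 (0.53, 0.000242) and Col4a5 (0.33, 0.0108) were also higher with ApoM than with CYM50358. These were 1 of 10 receptors, 3 of 6 collagen IV chains and 2 of 15 other basement membrane genes tested, where 1.22% of all genes were higher. Col4a4 averaged 284 ± 43.6 with ApoM and 194 ± 5.34 with CYM50358. Col4a3, the targeted gene, averaged 22.5 ± 0.786 with ApoM and 15.5 ± 1.92 with CYM50358, so its values are of reads that remain in knockout cells. No gene of these lists was lower with ApoM. Of the parietal and tubular markers 6 were tested, 1 was higher and 1 lower, where 1.22% of all genes were higher and 1.37% lower. Summed signals of that list were 693 to 728 with ApoM and 689 to 731 with CYM50358, and the part of these markers was not tested.

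Across all 15 libraries, as a description over tables that were normalized separately, the log2 signal of Lamc1 was most like that of Col4a1 (Pearson r = 0.87), Kctd12 (0.87), Pxdn (0.86), Lama5 (0.85) and Erbin (0.84) among 8758 genes. That of Lama1 was most like Uba2 (0.90), Hacd4 (0.87), Gpkow (0.87), Ifnar1 (0.85) and Suv39h1 (0.85) among 8759 genes. Among the 10 genes, Lamc1 had an r of 0.83 with Lamb1 and -0.0043 with Lamb2, and Lama1 an r of 0.46 with Lama2.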

How the data were processed

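The 3 tables list 57132 genes each with signal per library, which the authors deposited without a stated unit. Per the submitters' processing notes, FastQC, Trim Galore, STAR and edgeR were used with genome build mm39; no source used here states their roles, versions or use of strand. Besides signal, the authors deposited, per the file headers, a log2 fold change with its standard error, a score (the test statistic), a p-value and an adjusted p-value per gene, used only where the authors' deposited table is named. Dividing by the smallest step gave whole reads for 100% of values (tolerance 0.01). The vehicle columns of the 2 treatment tables were identical and entered once. Replicates were all distinct libraries (chi-square per degree of freedom between replicates at least 9.83; 47.7 and 50.0 for wild-type replicate 1 against the others).

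Signal was tested with limma 3.58.1 (R 4.3.3) on log2(signal + 1), with a mean-variance trend and only the 2 groups compared in each fit, for genes reaching a signal of 0.5 in 3 or more libraries, with Benjamini-Hochberg adjustment and calls at an adjusted p under 0.05; the fit was tested on simulated data. Alternatives were a pseudocount of 0.1, no minimum signal or one of 5, other scalings, edgeR 4.0.16 and DESeq2 1.42.0 on recovered reads, a replicate block, 1 fit per table, chromosome medians subtracted and each library left out. Lengths per kb are merged exons of GENCODE vM21 (GRCm38), not the authors' annotation.

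The members and lists were chosen with earlier results of these data known. Named were all 10 members, the other laminin chains, up to 4 called genes with the smallest p per list and comparison, and the 5 genes most alike to Lama1 and to Lamc1 among those with a mean signal of at least 10 in each table; Itgb1 and the mesangial and fibroblast markers between the genotypes were added after their values were seen. A few genes named by this rule are left out of the text.

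Replicate numbers come from the titles. Deviations from group means of same-numbered libraries correlated at 0.371, 0.217 and 0.105 between knockout and wild type. Between ApoM and CYM50358 they correlated at 0.132, 0.115 and 0.132. The main tests used no pairing. The numbers entered only as the replicate block, an alternative fit, and taking them to pair those samples was a choice made from these same data. The exception in order was wild-type replicate 3, whose highest correlation was with knockout replicate 2 (0.197). Correlations as large arose elsewhere, at 0.135 for replicate 1 of ApoM and vehicle and 0.173 for CYM50358 replicate 3 and vehicle replicate 2.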

Additional observations from a re-analysis of the deposited data

How the results depend on the processing

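The 5 calls between knockout and wild type held under every alternative run, with 5 to 8 of the 10 genes called when 1 library was left out. Over all genes that comparison had 6395 calls, and 4833 to 6387 with 1 library left out. Subtracting chromosome medians could only enlarge the changes of Hspg2, Agrn and Lama2, so for them it was no test. For ApoM minus vehicle 0 of the 10 genes were called throughout. For CYM50358 minus vehicle 2 were called, 0 with no minimum signal, 4 with DESeq2 and 0 to 2 with 1 library left out; for ApoM minus CYM50358 2 were called, 0 with no minimum signal, 4 with DESeq2, 6 with the replicate block and 1 to 4 with 1 library left out. Calls over all genes were 6 with ApoM, 359 with CYM50358 and 360 between these treatments; in that order they were 0, 1 and 6 with no minimum signal, 19, 763 and 639 with DESeq2, and 0 to 12, 78 to 474 and 130 to 542 with 1 library left out. With all treatment libraries in 1 fit they were 0 for ApoM and 596 for CYM50358. The cause was not tested. Between treated and vehicle cells same-numbered libraries did not vary together (correlations of -0.161 to 0.135), and the replicate block gave 17 calls for ApoM and, for CYM50358, a limma adjusted p of 0.0383 for Hspg2; between the genotypes it changed no call of the 10 genes other than that of Lamb2.

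Signs turned only when a library was left out, for genes and ratios that had not passed. Between the genotypes Lamc1 ran from -0.076 to 0.19, Nid2 from -0.13 to 0.18 and Lama2/Lama1 from -0.35 to 0.048. For ApoM minus vehicle Nid2 ran from -0.18 to 0.071, Lamb1 from -0.031 to 0.042, Lamc1 from -0.021 to 0.067, Hspg2 from -0.0035 to 0.10, Agrn from -0.040 to 0.071 and Nid2/Nid1 from -0.13 to 0.30. For CYM50358 minus vehicle Nid2 ran from -0.21 to 0.036. For ApoM minus CYM50358 Lamb2 ran from -0.085 to 0.034, Nid2 from -0.010 to 0.11, Lama5/Lama1 from -0.41 to 0.24 and Lama2/Lama1 from -0.33 to 0.30. Alternatives other than a left-out library kept 342 gene values on their side of the threshold, and moved 13 past it and 4 back from it. Lama1 and Lama2 have the fewest reads of the 10 genes.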
